A study of Bos taurus with 8 samples.

Results

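The cytochrome P450 family was examined in the liver of fetal calves whose dams had been fed a low or a high level of nutrition. Members were all probes of the array whose RefSeq accession belonged to a gene with a symbol that starts with CYP and a digit, leaving out CYP51A1, an enzyme of cholesterol synthesis. This gave 75 of 43637 probes and 31 genes, against 12603 genes in all with a matched probe. The reference table lists 56 such genes, and 25 of them, for which no probe was matched, are not analysed here. They are CYP1A1, CYP1A2, CYP21A1P, CYP24A1, CYP26C1, CYP27B1, CYP27C1, CYP2A13, CYP2B39, CYP2C281, CYP2C282, CYP2C85, CYP2C88, CYP2F1, CYP2J30, CYP2J31P, CYP2W1, CYP3A24, CYP4A59, CYP4A60P, CYP4F22, CYP4F47, CYP4X1, CYP7B1 and CYP8B1.

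P450 enzymes are heme proteins that insert an oxygen atom into a substrate, using electrons that reach microsomal members from P450 oxidoreductase (POR) and mitochondrial members from ferredoxin. In liver, many members of the CYP1, CYP2 and CYP3 families oxidise drugs, plant compounds and other foreign molecules, whereas other members have defined substrates such as fatty acids, bile acid precursors, steroids and vitamin D. Several of the drug-metabolising genes are known to be switched on by nuclear receptors, among them NR1I2 (PXR) and NR1I3 (CAR).

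Japanese Black dams were inseminated with male-sorted semen of 1 sire and were fed through gestation either 60% of what they required (the low-nutrition group, LN) or 120% of it (the high-nutrition group, HN). Fetuses were taken at 8.5 months after conception by the labels (day 260 ± 8.3 of gestation in the study's methods), and liver RNA of 4 LN fetuses (L5, L6, L8 and L9) and 4 HN fetuses (L1, L2, L3 and L10) was hybridised in 1 colour to Agilent bovine arrays. Each array is labelled with 1 fetus, although the design text mentions pooled RNA, and the arrays are treated as 8 animals. By the methods, LN fetuses were chosen for low and HN fetuses for high body weight, so the groups differ in weight by choice as well as in maternal diet. Each group had its own slide and its own scan, and neither can be told apart from the diet.

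The LN arrays had 32635 to 33371 spots well above background and the HN arrays 33254 to 34369, of 43803 spots each, and 0 spots were saturated. Hepatocyte markers were detected for 8 of 9 genes, and their summed log2 signal lay between 20.82 and 20.89 in LN and between 20.80 and 20.88 in HN. Most of this sum comes from the brightest probes, whose values quantile normalization sets largely by rank. The closeness of both ranges therefore does not measure whether hepatocyte content was equal. Markers of red cell precursors were detected for 5 of 8 genes, with a summed log2 signal of 8.16 to 12.65 in LN and 7.55 to 9.10 in HN. SLC4A1, EPB42 and KLF1 were not detected, and L5 alone accounted for the top of the LN range. Of 4 neutrophil markers, 3 had a higher mean in LN, by 1.32 ± 0.33 SE for MPO, whose groups did not overlap (adjusted p = 0.76 by limma), 0.89 ± 0.55 SE for S100A8 and 0.81 ± 0.49 SE for S100A9, and LTF differed by -0.22 ± 0.48 SE. The bile duct marker KRT7 differed by 0.67 ± 0.27 SE (adjusted p = 0.78, limma). The part of these cell types in the P450 values was not tested. In bulk tissue, fewer cells of a type and less RNA per cell cannot be told apart.

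A probe was taken as detected if 4 or more of the 8 arrays held it well above background. Such a probe was found for 27 of the 31 P450 genes, in 20 subfamilies. For 22 of these the probe was above background on all 8 arrays. The other 5 were CYP1B1, CYP2E1, CYP4B1, CYP7A1 and CYP21A2, whose signals were near background on some arrays. Undetected were CYP19A1 (aromatase), CYP26A1 and CYP26B1 (both of which clear retinoic acid) and CYP2B6 (a drug-metabolising enzyme). CYP2B6 was well above background on 0 LN and 2 HN arrays, CYP26A1 on 1 array of each group, and CYP26B1 on 0 arrays. Of 5 CYP19A1 probes, only 1 was above background on any array, that of LN fetus L9, with a log2 signal of 5.02.

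The LN and HN groups were compared to ask whether maternal undernutrition was accompanied by other P450 transcript levels in the fetal liver. By limma, 0 of 27 detected P450 genes passed an adjusted p of 0.05, as did 0% of all 10861 genes with a detected probe, and the lowest adjusted p of a member was 0.79. At an unadjusted p of 0.05, 0 of 27 members passed, against 6.05% of all genes. The values of LN and HN fetuses did not overlap for 0 of 27 members, against 4.14% of all genes. Differences in the following are LN minus HN on the log2 scale, with the brightest detected probe standing for a gene.

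The mean signal was lower in LN for 17 of 27 P450 genes (63%), against 48.4% of all genes, and the median difference was -0.06 against 0.01 over all genes. With 1 fetus left out the median ranged from -0.20 (18 of 27 lower) without HN fetus L2 to 0.03 (12 of 27 lower) without HN fetus L1, and it was -0.10 without L9, -0.03 without L5 or L8 and 0.02 (11 of 27 lower) without HN fetus L10. It was -0.11 (18 of 27 lower, against a median of -0.023 over all genes) with scaling to the 75th percentile, -0.10 (21 of 31 lower) with no filter on dim probes and -0.0066 (15 of 27 lower, against a median of 0.00586 over all genes) with another background correction (normexp). For 7 of 27 genes (25.9%) the groups were more than 0.32 apart on the log2 scale, against 16.4% of all genes. CYP2C90, CYP7A1 and CYP4A11 were lower in LN by more than this limit (3 of 27, against 8.63% of all genes), although CYP7A1 was above background on only 1 LN array. CYP1B1, CYP3A28, CYP11A1 and CYP2C89 were higher (4 of 27, against 7.82%), although CYP1B1 was above background on only 3 LN and 2 HN arrays. These 7 are values past a limit of size, and none of their differences passed the test.

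**Figure D1:**
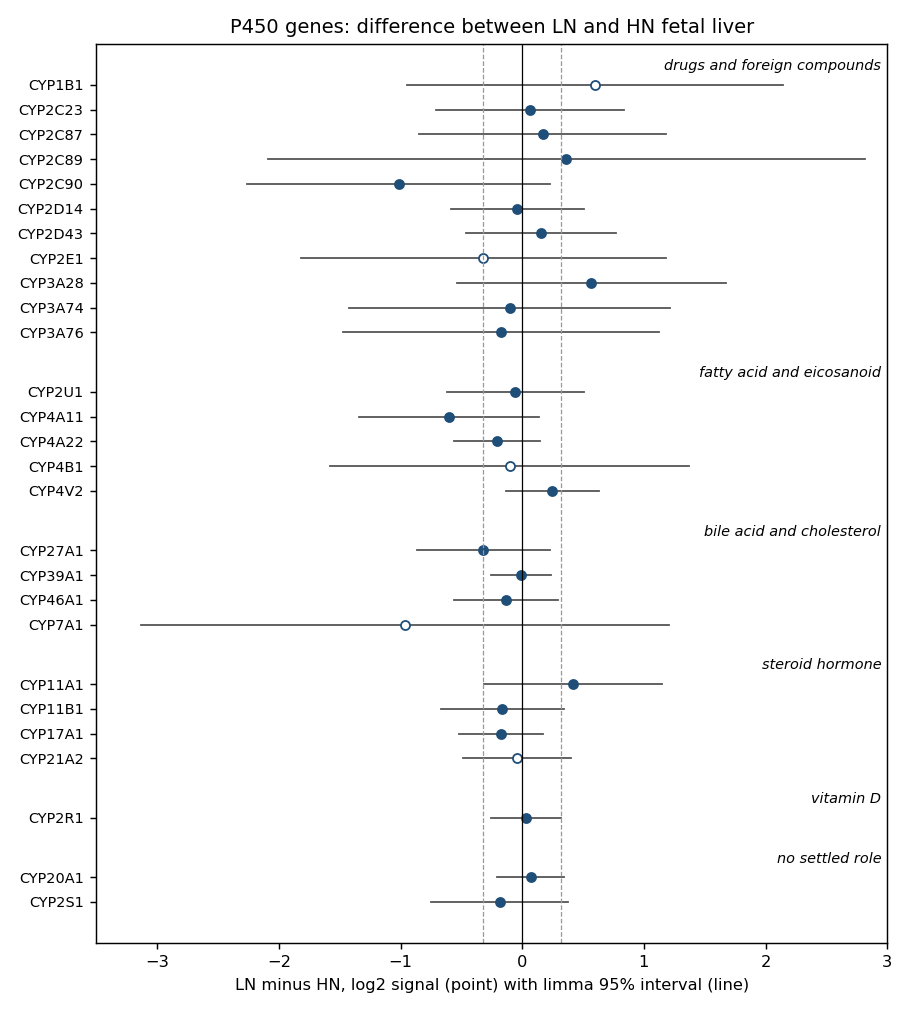
Difference between LN and HN fetal liver for the 27 detected P450 genes, grouped by role. Points show LN minus HN on the log2 scale, lines the 95% interval from limma, open points genes above background on 4 to 7 of the 8 arrays, and dashed lines a difference of 0.32 in either direction. The interval of every gene includes 0.

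More than 1 detected gene was found in 4 subfamilies. The median difference was 0.12 over 4 CYP2C genes, 0.06 over 2 CYP2D genes, -0.10 over 3 CYP3A genes and -0.40 over 2 CYP4A genes. Both CYP4A genes had a lower mean in LN, whereas the other 3 subfamilies held differences of either sign. Members of these subfamilies are close in sequence, and a probe may also bind the RNA of a neighbour, so the assignment of a signal to 1 gene is uncertain there.

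Among the 11 detected genes for drugs and foreign compounds, 5 had a lower and 6 a higher mean in LN, and the median difference was 0.07. CYP2C90 belongs to a subfamily that in other mammals oxidises drugs and arachidonic acid. Its log2 signal was 6.63, 4.77, 6.54 and 6.48 in LN fetuses L5, L6, L8 and L9, and 6.97, 7.15, 6.02 and 8.35 in HN fetuses L1, L2, L3 and L10. L6 stood apart at the bottom and L10 at the top, and L3 lay among the LN fetuses. The HN mean was 2.02-fold the LN mean (difference -1.02 ± 0.55 SE, n = 4 and 4, adjusted p = 0.79 by limma, 2-sided exact permutation p = 0.23). Without L6 the difference was -0.57, without L10 -0.61, and without L3 -1.38, which passed an unadjusted but not an adjusted limma p of 0.05 (adjusted p = 0.61). With normexp the difference was -0.63.

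CYP2C89 had the widest spread of the family. Its log2 signal was 6.25, 5.28, 5.14 and 9.22 in L5, L6, L8 and L9, and 7.48, 3.56, 7.18 and 6.21 in L1, L2, L3 and L10. L9 in LN lay 50.5-fold above L2 in HN, and the groups overlapped between 5.14 and 7.48. The difference of 0.36 ± 1.08 SE (adjusted p = 0.96, limma) turned to -0.56 without L9 and to -0.49 without L2, and was 0.19 with normexp. The other CYP2C genes differed by 0.07 ± 0.34 SE (CYP2C23) and 0.17 ± 0.45 SE (CYP2C87).

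CYP3A genes encode the enzymes that handle the broadest range of drugs in mammalian liver. CYP3A28 had log2 signals of 6.04, 7.4, 7.59 and 8.21 in L5, L6, L8 and L9, and of 7.23, 5.69, 7.04 and 7.0 in L1, L2, L3 and L10. Of the LN fetuses, 3 lay above every HN fetus, and L5 lay below all HN fetuses except L2. The LN mean was 1.48-fold the HN mean (difference 0.57 ± 0.49 SE, adjusted p = 0.86 by limma, exact permutation p = 0.34). Without L5 the difference was 0.99, past an unadjusted limma p of 0.05 but not an adjusted one (adjusted p = 0.88), and without L2 or L9 it was 0.22 or 0.27.

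CYP3A76 had log2 signals of 11.06, 10.12, 12.02 and 10.77 in L5, L6, L8 and L9, and of 11.90, 9.92, 10.56 and 12.29 in L1, L2, L3 and L10. For CYP3A74 they were 9.67, 8.87, 10.83 and 9.61 in LN, and 10.59, 8.65, 9.15 and 11 in HN, in the same order. Both genes were highest in L10, L8 and L1 and lowest in L2 and L6, so that each diet contributed fetuses to both ends. This trio of highest fetuses was found for 1.59% of all genes. It was noticed in the values first, so that share does not measure how rare the match is. Probes of these close genes may also share signal, so both genes may not be separate observations. Over the 7 probes of both genes, L2 was the lowest fetus on 7, L10 the highest on 6, and L1, L8 and L10 were the 3 highest on 6. The range over 8 fetuses was 2.09 to 2.70 for these probes. Their differences between diets lay between -0.37 and 0.05, and for the brightest probes they were -0.10 ± 0.58 SE (CYP3A74) and -0.18 ± 0.57 SE (CYP3A76). The single CYP3A28 probe had L9 at the top, unlike the brightest probes of the other 2 CYP3A genes.

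**Figure D2:**
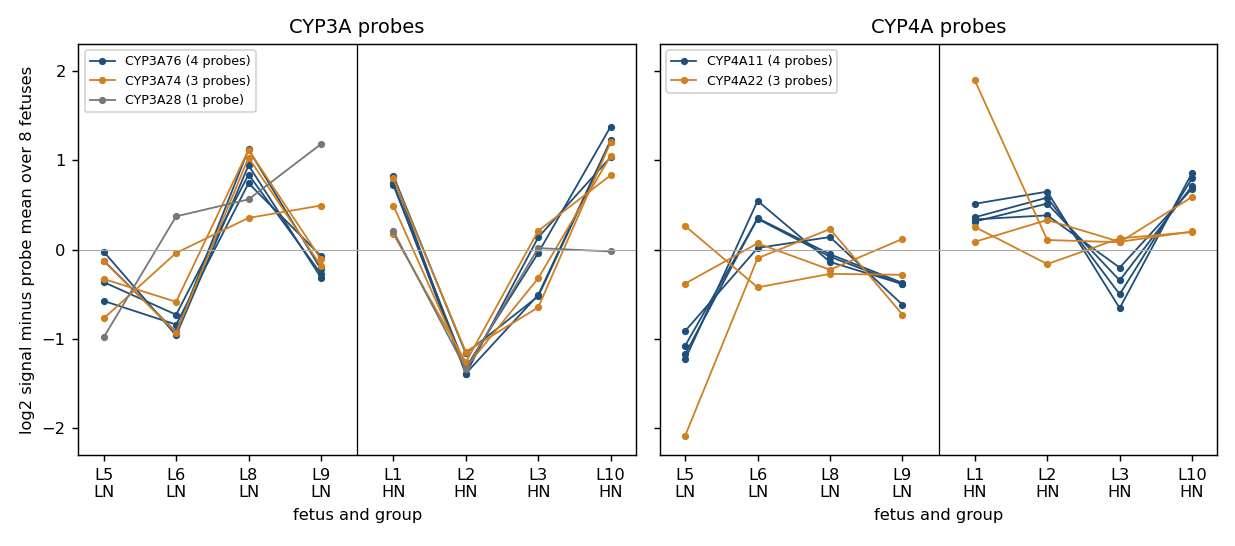
Signal of each detected CYP3A probe (left) and CYP4A probe (right) in each fetus, as the log2 signal minus the mean of that probe over 8 fetuses, with 1 line per probe and a break between LN and HN. The 7 probes of CYP3A74 and CYP3A76 were all lowest in L2, and the 4 probes of CYP4A11 were all lowest in L5 and highest in L10.

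CYP1B1, which oxidises oestrogens and aromatic hydrocarbons, was well above background on 3 LN and 2 HN arrays. Its log2 signal was 3.40, 4.75, 2.61 and 4.57 in L5, L6, L8 and L9, and 2.48, 4.48, 1.83 and 4.15 in L1, L2, L3 and L10. High and low fetuses occurred in both groups, and the difference of 0.60 ± 0.68 SE (adjusted p = 0.90, limma) was 0.13 without L3 and 0.11 with normexp, but 1.01 without L2, 1.0 without L8 and 0.90 without L10. CYP2E1, the enzyme of ethanol and small solvents, was detected with 1 of 3 probes, above background on 2 LN and 3 HN arrays. Its difference of -0.32 ± 0.66 SE is therefore no exact size, and it was -0.076 with normexp. The 2 CYP2D genes, whose relatives oxidise amine drugs, differed by -0.04 ± 0.24 SE (CYP2D14) and 0.16 ± 0.27 SE (CYP2D43). A second CYP2D43 probe pointed the other way, at -0.25.

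Of the 5 detected genes for fatty acids and eicosanoids, 4 had a lower mean in LN (median difference -0.10). CYP4A enzymes hydroxylate the end of medium- and long-chain fatty acids and are known targets of the nuclear receptor PPARA. CYP4A11 had log2 signals of 12.71, 14.13, 13.71 and 13.40 in L5, L6, L8 and L9, and of 14.10, 14.30, 13.44 and 14.50 in L1, L2, L3 and L10. Of the HN fetuses, 3 lay above L5, L8 and L9, while L6 in LN and L3 in HN lay with the other group. The HN mean was 1.51-fold the LN mean (difference -0.60 ± 0.33 SE, adjusted p = 0.80 by limma, exact permutation p = 0.17).

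The other 3 CYP4A11 probes differed by -0.60, -0.62 and -0.68, and all 4 probes had L5 at the bottom and L10 at the top. L5 was also the fetus with the summed red cell precursor signal of 12.65, against 7.55 to 9.10 in the other 7, and the part of this in the CYP4A11 signal was not tested. Without L5 the difference was -0.34. Leaving out L6 or L3 instead gave -0.81 in both cases, again past an unadjusted limma p of 0.05 alone (adjusted p = 0.76 without L6, and adjusted p = 0.61 without L3).

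CYP4A22 was measured by 3 detected probes, all lower in LN. The brightest gave a difference of -0.21 ± 0.16 SE (exact permutation p = 0.17), or -0.12 without L5, and the next -0.36. The dimmest gave -1.34, and it was the only one of 50 detected P450 probes at an unadjusted limma p of 0.05 (adjusted p = 0.785, exact permutation p = 0.0857), or 2% against 6.32% of all detected probes. Its log2 signal was 2.32, 4.30, 4.63 and 3.67 in L5, L6, L8 and L9, and 6.29, 4.50, 4.48 and 4.99 in L1, L2, L3 and L10. This probe was not well above background in L5, so that neither the value of L5 nor the difference is an exact level. L1 lay well above the other fetuses, and the groups overlapped through L8. With the mean over the 3 probes in place of the brightest, CYP4A22 differed by -0.63 and the groups did not overlap, past an unadjusted limma p of 0.05 but not an adjusted one (adjusted p = 0.725). That mean includes the probe that was dim in L5.

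CYP4V2, a fatty acid hydroxylase found in many tissues, was the 1 gene of this role with a higher mean in LN, by 0.25 ± 0.17 SE (exact permutation p = 0.20), or 0.10 without L5 and 0.35 without L8. Of its 3 other probes, 2 differed by 0.20 and 0.33 and the last by -0.09. CYP2U1, which acts on long-chain fatty acids, differed by -0.06 ± 0.25 SE, and CYP4B1 by -0.10 ± 0.65 SE. Probes were also matched to 3 genes with LOC symbols and CYP4F synonyms, which were therefore not members. CYP4F enzymes inactivate leukotrienes. LOC507016 (synonym CYP4F2) differed by -0.18 ± 0.16 SE, LOC507615 (also CYP4F2) by -0.20 ± 0.13 SE and LOC534967 (CYP4F3) by 0.19 ± 0.29 SE. A second LOC534967 probe pointed the other way, at -0.12, and a second LOC507615 probe gave -0.00290.

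**Figure D3:**
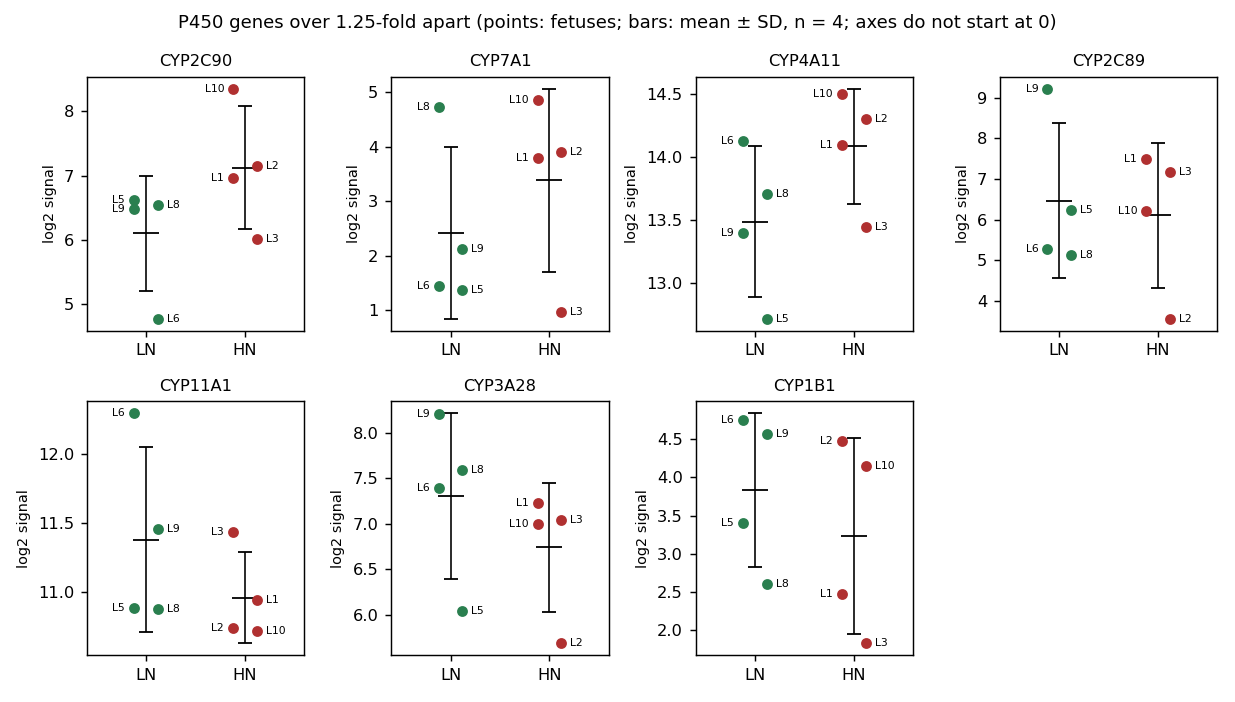
Log2 signal in each fetus for the 7 P450 genes more than 0.32 apart on the log2 scale, with the mean and SD of each group (n = 4) and axes that do not start at 0. The groups overlapped for all 7 genes, and CYP1B1 and CYP7A1 were near background on some arrays.

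All 4 detected genes for bile acids and cholesterol had a lower mean in LN, as had 48.4% of all genes, and their median difference was -0.23. HN fetus L10 was the highest of the 8 for each of them, and without L10 the differences of CYP39A1 and CYP46A1 turned to 0.02. CYP7A1 catalyses the rate-limiting step of the classical bile acid pathway. Its probe was well above background only in L8 of the LN fetuses and in L1, L2 and L10 of the HN fetuses. The log2 signal was 1.37, 1.45, 4.72 and 2.13 in L5, L6, L8 and L9, and 3.80, 3.90, 0.97 and 4.86 in L1, L2, L3 and L10. L8 in LN came close to L10, and the values of L5, L6, L9 and L3 have no order, being near background. The fitted difference of -0.96 ± 0.96 SE is therefore no exact size (adjusted p = 0.89 by limma, exact permutation p = 0.46). With normexp the difference was -0.17, without L3 it was -1.77, and without L10 it was -0.47.

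CYP27A1, which oxidises the sterol side chain in mitochondria, had log2 signals of 10.64, 9.57, 10.20 and 10.06 in L5, L6, L8 and L9, and of 10.12, 10.25, 10.62 and 10.75 in L1, L2, L3 and L10. Its 4 probes gave differences from -0.34 to -0.32, with L6 the lowest fetus (exact permutation p = 0.23 for the brightest probe). For that probe the difference was -0.14 without L6 and -0.49 without L5. CYP46A1, known for cholesterol turnover in brain, differed by -0.13 ± 0.19 SE. Scaling to the 75th percentile gave it -0.35, past the limit of 0.32, whereas normexp gave -0.00195, and without L1 it was -0.29. CYP39A1, an oxysterol hydroxylase, was the least variable member, with log2 signals from 7.84 to 8.11 over the 8 fetuses. Its difference of -0.01 had a 95% interval from -0.25 to 0.24, so that differences beyond these bounds lay outside the interval of this probe. A second CYP39A1 probe gave -0.31 (exact permutation p = 0.14).

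Steroid hormone P450 genes are best known from adrenal gland and gonad, and 4 of them were detected here, 3 of them with a lower mean in LN (median difference -0.10). CYP11A1, which cleaves the cholesterol side chain to start steroid synthesis, had log2 signals of 10.88, 12.29, 10.88 and 11.46 in L5, L6, L8 and L9, and of 10.94, 10.74, 11.43 and 10.72 in L1, L2, L3 and L10. L6 was well above the rest, and L9 and L3 followed. The LN mean was 1.34-fold the HN mean (difference 0.42 ± 0.32 SE, adjusted p = 0.85 by limma, exact permutation p = 0.29), and the difference was 0.12 without L6. The other 2 probes of the gene gave 0.30 and 0.48.

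CYP11B1, which completes cortisol synthesis, had log2 signals of 11.23, 11.81, 11.05 and 11.69 in L5, L6, L8 and L9, and of 11.41, 11.32, 12.04 and 11.69 in L1, L2, L3 and L10. It differed by -0.17 ± 0.22 SE between groups, by -0.0231 without L3 and by -0.29 without L6. This signal came from 1 of 3 CYP11B1 probes, and the other 2 were above background on 0 arrays. CYP11A1, CYP11B1 and CYP2S1 each had L3, L6 and L9 as the 3 highest fetuses, in differing order, as did 8.93% of all genes in any order. This trio was also noticed in the values first.

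Of the adrenal cortex markers STAR, NR5A1, INHA, MC2R and MRAP, 3 were detected. MC2R, the corticotropin receptor, was not detected and MRAP had no matched probe. The summed signal of this list was 7.54 to 8.52 in LN and 7.46 to 8.34 in HN, and STAR, the carrier of cholesterol into mitochondria, was also highest in L9, L3 and L6, at 8.25, 7.94 and 7.68, against 6.61 to 6.87 in the other fetuses. The other 2 detected markers had other fetuses at the top, L3, L10 and L1 for NR5A1 (4.31, 4.05 and 3.95) and L2 and L10 for INHA (7.14 and 6.75). The part of adrenal cortex RNA in the CYP11A1 and CYP11B1 values was not tested. CYP17A1, needed for cortisol and androgens, was detected with 1 of 2 probes and differed by -0.18 ± 0.15 SE. Its difference was -0.067 without L5, -0.0934 with normexp and -0.32 with scaling to the 75th percentile. CYP21A2, needed for cortisol and aldosterone, was detected with 1 of 2 probes, above background on 2 LN and 4 HN arrays. It differed by -0.04 ± 0.19 SE.

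The vitamin D hydroxylase CYP2R1 had log2 signals from 9.16 to 9.42 in LN and from 8.99 to 9.34 in HN, with a difference of 0.03 ± 0.13 SE. CYP20A1 and CYP2S1, whose roles are not settled, differed by 0.07 ± 0.12 SE and -0.18 ± 0.25 SE. CYP2S1 was detected with 1 of 3 probes, and its difference was -0.0233 without L8 and -0.34 without L9.

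The family varied more between fetuses of the same group than most genes did. The median within-group SD was 0.435 on the log2 scale over 27 members, against 0.232 over all 10861 genes, and over probes above background on all 8 arrays it was 0.393 (22 members) against 0.225 (10389 genes). Among the related lists the median SD was 0.594 for 8 steroid partners, 0.378 for 11 other phase I enzymes and 0.249 for 14 regulators. It was 0.234 for 12 heme genes and 0.143 for 9 electron transfer genes. No test was made of this, since genes are not independent of each other. By role, the median SD was 0.92 for the 11 drug-metabolising genes, 0.39 for the 5 fatty acid genes, 0.33 for the 4 bile acid and cholesterol genes and 0.32 for the 4 steroid genes. CYP2C89 (SD 1.84) exceeded 99.8% of all genes, and CYP3A74 (0.979), CYP3A76 (0.966) and CYP2C90 (0.923) exceeded more than 97% of them. CYP39A1 (0.0907), CYP20A1 (0.132) and CYP2R1 (0.142) lay at the other end.

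HN fetus L10 was the highest of the 8 for 12 of 27 P450 genes (44.4%), against 14.9% of all genes. These spanned several roles, among them CYP4A11, CYP27A1, CYP7A1, CYP2C90, CYP3A74 and CYP3A76. They also included CYP2E1 and CYP21A2, which like CYP7A1 were near background on some arrays. The genes are not independent of each other. HN fetus L2 was the lowest for 8 members (29.6%, against 12% of all genes) and the highest for 0. Counted against the mean of each gene over the 8 fetuses, 20 of 27 members were above it in L10, 11 in L2 and 7 in LN fetus L5, the fewest of any fetus.

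**Figure D4:**
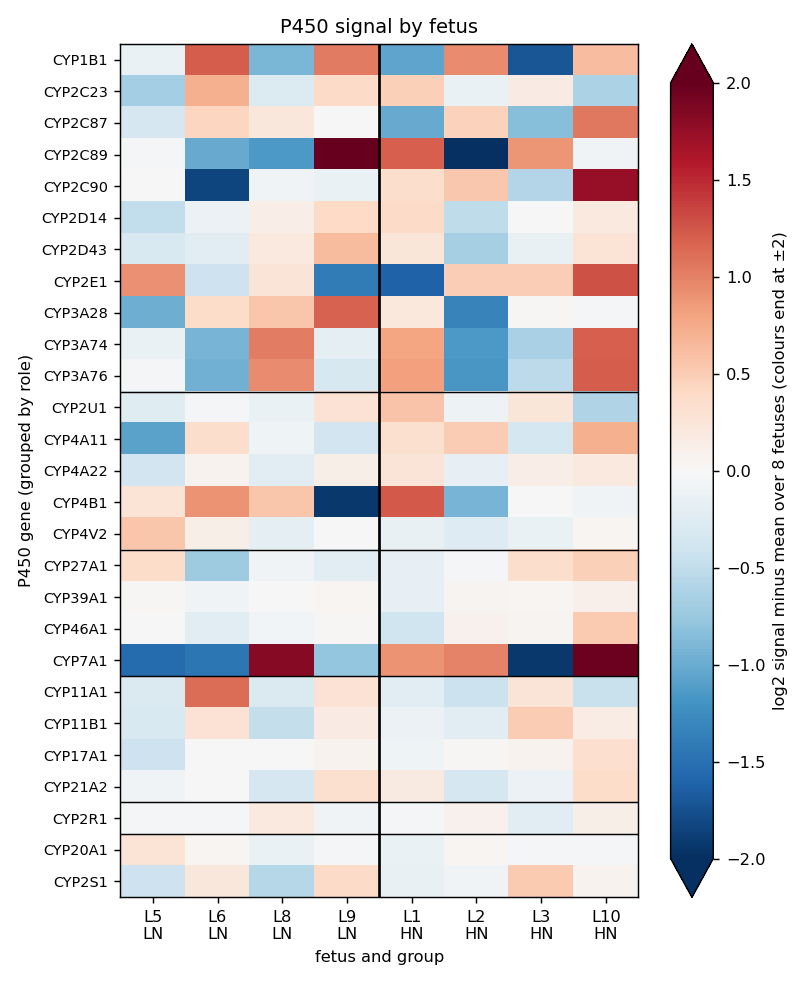
Log2 signal of the 27 detected P450 genes in each fetus minus the mean of the gene over 8 fetuses, with rows grouped by role in the order drugs and foreign compounds, fatty acid and eicosanoid, bile acid and cholesterol, steroid hormone, vitamin D and no settled role. Red marks a higher and blue a lower signal than the mean of the gene, and the column of L10 holds the highest value for 12 genes.

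All 9 listed electron transfer genes were detected, 6 of them with a lower mean in LN (median difference -0.04), and 0 had an unadjusted p of at most 0.05. Over all genes, 48.4% had a lower mean in LN, 6.05% had such a p and 4.14% did not overlap between groups. These shares also apply to the lists below. POR, which passes electrons to microsomal P450 enzymes, differed by -0.20 ± 0.11 SE (exact permutation p = 0.11). CYB5R3, the reductase of cytochrome b5, had log2 signals of 13.38 to 13.59 in LN and 13.59 to 13.78 in HN, which did not overlap (difference -0.20 ± 0.11 SE, exact permutation p = 0.0286, the smallest possible, and adjusted p = 0.80 by limma). Of 12 heme synthesis and turnover genes, 5 had a lower mean in LN, the median was 0.05 and 0 passed an unadjusted p of 0.05. Past 0.32 on the log2 scale were UROS (-0.36 ± 0.22 SE) and FECH (0.39 ± 0.50 SE), both enzymes of heme synthesis (2 of 12, against 16.4% of all genes). ALAS1, the rate-limiting enzyme of heme synthesis in liver, differed by 0.07 ± 0.23 SE.

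Of 18 listed regulators of P450 genes, 14 were detected, 9 of them with a lower mean in LN (median -0.03). At an unadjusted limma p of 0.05, 2 of 14 passed, NR1I3 and VDR, against 6.05% of all genes, and 0 passed after adjustment. NR1I3, a receptor that switches on CYP2B, CYP2C and CYP3A genes, had log2 signals of 7.15, 6.5, 7.34 and 7.84 in L5, L6, L8 and L9, and of 8.05, 7.72, 8.11 and 8.63 in L1, L2, L3 and L10. Only L9 and L2 overlapped (difference -0.92 ± 0.29 SE, adjusted p = 0.76 by limma, exact permutation p = 0.0571). VDR, the vitamin D receptor, did not overlap between groups (difference 0.31 ± 0.13 SE, adjusted p = 0.79 by limma, exact permutation p = 0.0286). NR1I2 differed by -0.02 ± 0.36 SE, PPARA by -0.03 ± 0.31 SE, HNF4A by -0.07 ± 0.16 SE, AHR by -0.23 ± 0.16 SE and the bile acid receptor NR1H4 by -0.09 ± 0.23 SE.

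Other phase I enzymes were detected for 11 of 13 genes, with a lower LN mean for 7, a median of -0.09 and 0 at an unadjusted p of 0.05. EPHX1, which hydrolyses epoxides made by P450 enzymes, differed by -0.48 ± 0.24 SE (adjusted p = 0.79, limma), and MAOA, which oxidises amines, by 0.38 ± 0.27 SE. These 2 of 11 were past 0.32, against 16.4% of all genes. Steroid partner enzymes were detected for 8 of 9 genes, with a lower LN mean for 7 and a median of -0.39. HSD11B1, which regenerates cortisol (-1.0 ± 0.40 SE), and HSD3B1, which acts after CYP11A1 (-0.80 ± 0.33 SE), passed an unadjusted limma p of 0.05 (2 of 8, against 6.05% of all genes), and 0 genes passed after adjustment. More than 0.32 lower in LN were 4 of 8, against 8.63% of all genes, with the largest difference for HSD17B6 (-1.18 ± 0.55 SE). HSD11B1 and HSD17B6 in this list are genes that the study had singled out in these samples, so their direction is not independent evidence.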

How the data were processed

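The livers of 4 LN and 4 HN fetuses were measured on 8 arrays. The authors deposited scanner output in which each spot has a processed intensity, background-subtracted by Agilent Feature Extraction 11.0.1.1 (per the submitters' processing notes) and not normalized between arrays. They also deposited a table of log2 values, which holds the 31068 probes above background on all 8 arrays and lies within 0.0423 of their quantile-normalized log2 intensities. Quantile normalization was done in GeneSpring GX according to the methods, which give no test for the arrays.

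Here, control spots and 16 probes marked as outliers (0 of them members) were removed, replicate spots were averaged per probe, and log2 intensities were quantile normalized over 43637 probes. Accessions were matched to the RefSeq gene table of assembly ARS-UCD2.0 for 26740 probes. The array was designed on another build, so no coordinates are given. LN and HN were compared on 33440 detected probes by a 2-sided moderated test in limma 3.58.1 (R 4.3.3), with p adjusted over these probes after Benjamini and Hochberg. Single genes were tested with exact permutation tests over all 70 divisions of 8 fetuses into 4 and 4, for which the smallest p is 0.0286. The number of arrays limits the precision, and the functions were tested on simulated data.

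Members with an unadjusted p of at most 0.05, without overlap between groups or more than 0.32 apart on the log2 scale (the fold limit of the study's pathway lists) are given in every fetus, and other members by difference or range. Members, roles and gene lists were chosen with earlier results of these data known, and genes named from the lists of partners and regulators were chosen after their values were seen. The summed log2 signals of macrophage, endothelium, stellate, bile duct and neutrophil markers overlapped between groups, and single neutrophil and bile duct markers are given in the text. Alternatives were scaling each array to its 75th percentile, background correction by normexp (offset 50), the deposited log2 table, leaving dim probes in, requiring all 8 arrays for detection, the mean over the probes of a gene, eBayes with trend and robust settings, the methods' t-test (named there for other measurements, not for the arrays) and each fetus left out in turn.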

Additional observations from a re-analysis of the deposited data

Results flagged for a closer look

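Each group of 4 fetuses was checked for 1 fetus far from the other 3 in each of the 27 detected P450 genes, which made 54 groups. Chance alone marks about 1 in 20 such groups, and 4 were marked. CYP2C90 had a log2 signal of 4.77 in LN fetus L6, against 6.48 to 6.63 in the other LN fetuses. CYP3A28 had 5.69 in HN fetus L2, against 7.0 to 7.23 in the other HN fetuses. CYP17A1 had 5.63 in LN fetus L5, against 6.04 to 6.12, and CYP2R1 had 9.42 in LN fetus L8, against 9.16 to 9.20.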

How the results depend on the processing

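No P450 gene passed an adjusted p of 0.05 under any of 16 alternatives, where the lowest adjusted p was 0.61. The direction of 12 of 27 genes held under every alternative that measured them, among them CYP2C90, CYP4A11, CYP3A28 and CYP11A1 (all 16) and CYP7A1 and CYP1B1 (14, since both dim probes are absent from the deposited log2 table and from detection on all 8 arrays), and 15 turned when a fetus was left out. The 3 genes more than 0.32 lower on the log2 scale in LN became 5 with scaling to the 75th percentile (13.2% of all genes), 6 with no filter on dim probes (9.54%) and 5 with the mean over probes (8.74%), and the 4 higher genes became 2 with normexp (3.76%). With the mean over probes, 1 gene had an unadjusted p of at most 0.05 in place of 0 (6.8% of all genes). Scaling to the 75th percentile also changed the split over all genes from 937 lower and 849 higher to 1433 and 612. The cause was not tested. CYP2C87 turned to -0.0624 with that scaling, CYP21A2 to 0.0349 and CYP39A1 to 0.00919 with normexp, and CYP2D43 to -0.0455 with the mean over probes. With 1 fetus left out, 0 to 2 genes had an unadjusted p of at most 0.05 (3.76% to 7.76% of all genes), 3 to 8 were lower by more than 0.32 (8 without L2, and 7.76% to 10.7% of all genes) and 2 to 5 higher (2 without L6, and 6.81% to 9.96% of all genes). Differences that turned then ranged from -0.00661 to 0.129 for CYP20A1, -0.16 to 0.0712 for CYP21A2, -0.16 to 0.31 for CYP2C23, -0.14 to 0.55 for CYP2C87, -0.56 to 0.82 for CYP2C89, -0.22 to 0.11 for CYP2D14, -0.0404 to 0.283 for CYP2D43, -0.91 to 0.0932 for CYP2E1, -0.0422 to 0.0749 for CYP2R1, -0.27 to 0.13 for CYP2U1, -0.066 to 0.0231 for CYP39A1, -0.50 to 0.28 for CYP3A74, -0.59 to 0.20 for CYP3A76, -0.29 to 0.0205 for CYP46A1 and -0.43 to 0.52 for CYP4B1. No paired analysis was possible, since by the methods dams were assigned to the diets at random, and LN and HN fetuses form no pairs. Genes near background, such as CYP7A1 and CYP1B1, have the least certain differences.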
